A study of Mus musculus with 2 samples.

Results

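Accessible chromatin was mapped along 8 neural genes, Gpr85, Slitrk1, Marcks, Vgf, Nrn1, Adcyap1, Rap2b and Fam84a, out of 21938 protein-coding gene models of GENCODE M21. The genes had been picked from these same libraries for accessibility far into the gene body, so their coverage is given as a description and no test was made on it. The data are DNase-seq of the left cerebral cortex of male B6CASTF1/J mice, hybrid offspring that carry 1 C57BL/6J and 1 CAST/EiJ copy of each autosome, at 14 days of age. There was 1 group and no contrast between conditions. Replicate 1 is labelled with 3 males and replicate 2 with 1 male, and the replicates are labelled as separate biological samples. The labels give both the same donor identifier, so whether they come from separate animals cannot be settled from the labels. No treatment or altered allele is named for either library.

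DNase I cuts DNA where it is not wrapped tightly in nucleosomes, and in most genes such DNA lies in a short stretch at the promoter and in scattered enhancers. Coding sequence is usually much less accessible. Several of the 8 genes are known to respond to neuronal activity or neurotrophins. Vgf, Adcyap1 and Nrn1 make secreted or surface-tethered signals, Slitrk1 and Gpr85 are cell-surface proteins, and Marcks, Rap2b and Fam84a act inside the cell. In bulk tissue, accessibility in few cells and weak accessibility in many cannot be told apart.

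Coverage is the percentage of bases inside intervals that the authors listed at a false discovery rate of 0.05 or less for the local cleavage rate. The listed intervals covered 43.1 Mb in replicate 1 and 42.9 Mb in replicate 2. Peaks at the promoters of 8 of 8 cortical and neuronal marker genes were listed in both libraries, with signals from 1.31 to 5.23. The 2 astrocyte and 2 microglial markers also had promoter peaks in both, at 0.356 to 0.94. Among all protein-coding genes, 66.7% had a promoter peak in both libraries. Of 3 cerebellar and hindbrain markers, 0 had a promoter peak in replicate 1 and 1 in replicate 2 (0.387), and Gabra6 and Barhl1 had none in either. The oligodendrocyte marker Mbp had 1.27 and 1.25, and Mog had a peak in replicate 2 only (0.344). Of 2 liver markers, 1 had a weak promoter peak in replicate 1 (0.275) and 0 in replicate 2.

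The sequences at the starts of some of these genes are shown first, since accessible starts of very different base composition occur among them. The 250 bases before the RefSeq start (GRCm38.p6) lie at chr12:14152039-14152288 (minus strand) for Fam84a, chr6:13839943-13840192 (minus strand) for Gpr85 and chr14:108914240-108914489 (minus strand) for Slitrk1. Capitals mark GC boxes (GGGCGG on either strand) and CCAAT boxes (CCAAT on either strand), letters bound by Sp-type factors and NF-Y.
Fam84a: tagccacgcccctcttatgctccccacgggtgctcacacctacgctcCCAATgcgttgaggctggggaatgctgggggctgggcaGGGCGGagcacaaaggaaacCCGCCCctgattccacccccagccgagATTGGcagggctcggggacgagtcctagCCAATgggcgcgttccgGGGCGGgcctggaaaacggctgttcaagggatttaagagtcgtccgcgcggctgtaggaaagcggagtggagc
Gpr85: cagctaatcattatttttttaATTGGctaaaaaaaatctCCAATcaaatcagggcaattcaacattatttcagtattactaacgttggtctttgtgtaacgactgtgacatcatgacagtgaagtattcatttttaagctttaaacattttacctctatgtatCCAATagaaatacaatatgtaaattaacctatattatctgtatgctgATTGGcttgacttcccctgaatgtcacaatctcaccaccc
Slitrk1: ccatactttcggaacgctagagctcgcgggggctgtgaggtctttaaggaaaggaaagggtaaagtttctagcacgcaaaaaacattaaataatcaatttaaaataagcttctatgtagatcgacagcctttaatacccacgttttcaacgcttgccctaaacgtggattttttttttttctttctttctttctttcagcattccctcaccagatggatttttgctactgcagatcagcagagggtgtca
The Fam84a stretch is 64.8% G and C, with 19 CpG, and all of it was accessible in both libraries. The Gpr85 stretch is 32% G and C with 2 CpG, and 61.2% and 58.4% of it was accessible in replicates 1 and 2. The Slitrk1 stretch, at 40.4% G and C with 9 CpG and neither box, was 84% and 62.4% accessible. GC boxes occurred in 35.7% and CCAAT boxes in 37.4% of 32851 RefSeq promoters searched from 250 bases before to 50 after the start. Of the 8 genes, 5 were matched in the promoter table, Fam84a under its newer symbol Lratd1. Marcks, Nrn1 and Vgf were not matched. Rap2b and Adcyap1 were matched, but their 250 bases are not shown. Those of Rap2b were 100% accessible in both libraries. The Adcyap1 stretches, before different RefSeq starts, were accessible over 2.8% and 63.2% in replicate 1 and over 0% in replicate 2, so not all starts were open.

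A second set shows coding sequence that was open, since open coding bases were uncommon elsewhere in these libraries. These are the coding bases of the strongest coding peak listed in both libraries, and capitals mark bases inside footprints of both libraries. A footprint is a short protected stretch within accessible DNA, as called by the authors. The stretches are chr14:108911361-108911600 (minus strand) in Slitrk1, chr5:137032681-137032839 (plus) in Vgf, chr12:14150081-14150260 (minus) in Fam84a, chr10:37136381-37136660 (minus) in Marcks and chr6:13835791-13835980 (minus) in Gpr85. The letters are the C57BL/6J reference of mm10, whereas the mice also carry a CAST/EiJ copy.
Slitrk1: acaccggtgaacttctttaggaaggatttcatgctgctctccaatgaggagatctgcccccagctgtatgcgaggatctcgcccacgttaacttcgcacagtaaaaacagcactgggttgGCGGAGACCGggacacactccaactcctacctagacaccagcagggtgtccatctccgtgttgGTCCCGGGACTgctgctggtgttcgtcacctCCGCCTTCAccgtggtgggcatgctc
Vgf: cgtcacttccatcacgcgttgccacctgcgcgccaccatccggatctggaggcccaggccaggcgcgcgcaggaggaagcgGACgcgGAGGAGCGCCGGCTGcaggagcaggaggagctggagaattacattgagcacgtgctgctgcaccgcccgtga
Fam84a: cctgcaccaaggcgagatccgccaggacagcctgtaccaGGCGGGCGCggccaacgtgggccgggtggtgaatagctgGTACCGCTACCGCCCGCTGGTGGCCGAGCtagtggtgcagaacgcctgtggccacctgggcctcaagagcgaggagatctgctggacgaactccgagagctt
Marcks: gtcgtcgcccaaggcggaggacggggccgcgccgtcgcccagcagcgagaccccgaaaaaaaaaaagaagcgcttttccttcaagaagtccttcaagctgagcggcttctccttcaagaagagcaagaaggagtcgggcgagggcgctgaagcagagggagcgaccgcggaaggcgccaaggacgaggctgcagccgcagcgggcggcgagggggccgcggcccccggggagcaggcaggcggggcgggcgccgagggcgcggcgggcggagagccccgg
Gpr85: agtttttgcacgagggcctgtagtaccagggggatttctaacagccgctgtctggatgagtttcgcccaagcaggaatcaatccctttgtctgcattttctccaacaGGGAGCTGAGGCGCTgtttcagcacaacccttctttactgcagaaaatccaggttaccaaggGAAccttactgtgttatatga
The Slitrk1 stretch includes codons of the transmembrane segment, towards its 3' end. In the stretch as a whole, 30 bases lay in footprints of both libraries. The Vgf stretch ends at the stop codon and codes for the C-terminal end of the precursor, from which secreted peptides are cut. The Marcks stretch codes for the basic effector domain that binds membrane phospholipids, calmodulin and actin. It is 71.1% G and C with 36 CpG and held no base in a footprint of both libraries. The Gpr85 stretch, at 48.4% G and C with 4 CpG, also ends at a stop codon, so open coding ends occurred at high and at low CpG content.

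The 8 genes were accessible over about 1 base in 2 of their span. Body coverage was highest in Gpr85, at 68.1% and 72.9% in replicates 1 and 2 (70.5% ± 3.37, SD, n = 2 libraries). Slitrk1 had 62.2% and 56.9% (59.6% ± 3.72), and Fam84a 58.1% and 59.3% (58.7% ± 0.826). These 3 genes had the highest coverage of the 8 in each library, and the order of Slitrk1 and Fam84a differed between libraries. Marcks had 53.9% and 54.1% (54.0% ± 0.140), Nrn1 57.0% and 49.9% (53.4% ± 4.99) and Vgf 51.1% and 52.0% (51.6% ± 0.640). Adcyap1 had 50.4% and 49.3% (49.9% ± 0.790), and Rap2b 49.3% and 50.3% (49.8% ± 0.687). Adcyap1 and Rap2b changed places between libraries, and the range of Nrn1 took in Marcks and Vgf and reached Adcyap1 and Rap2b. The median over all protein-coding genes was 2.35%, the 95th percentile 19.2% and the 99th percentile 51.2%.

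All 8 genes reached 45% body coverage in both libraries, as did 1.02% of all protein-coding genes. Because the genes were chosen for this readout, the count carries no weight of its own. The genes are short, spanning 5225 to 9771 bp against a median of 17425 bp for all genes. Among the 3310 protein-coding genes in that range of spans, the median body coverage was 2.86%, and 0.453% reached 45% in both libraries. Within that range the 8 genes held ranks 2, 5, 7, 8, 9, 11, 13 and 14, and 6 other genes lay at or above the lowest of them. Bases within 1000 bp of any GENCODE start of the same gene were then left out. Coverage ran from 22.5% ± 0.432 in Adcyap1 to 58.4% ± 0.806 in Rap2b, against a median of 0.545%. All 8 kept at least 20% in both libraries there, as did 1.11% of genes with such bases. Bases near RefSeq starts and near starts of other genes stayed in. Rap2b thus retained the peak at its RefSeq start, 2869 bp inside the model (6.36 and 7.26), and Nrn1 retained the start of Gm30177.

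**Figure D1:**
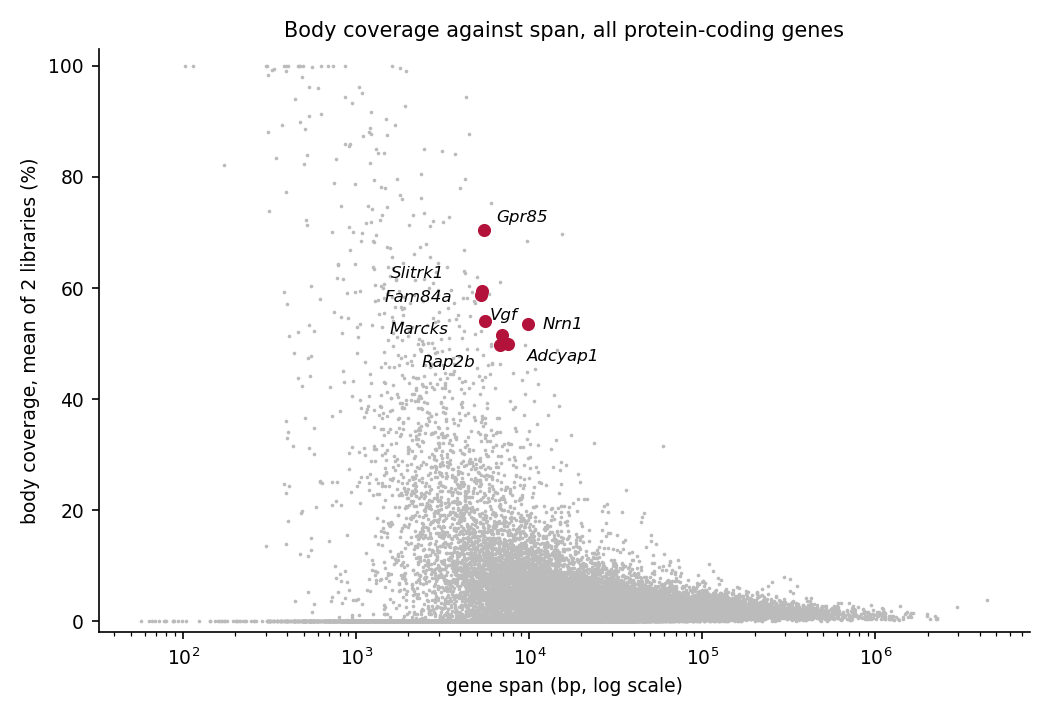
Body coverage (percentage of the gene span in intervals listed at a false discovery rate of 0.05 or less, mean of 2 libraries) against gene span on a log axis, for all protein-coding genes (grey) and the 8 genes (red, named). The 8 genes sit between 49.8% and 70.5%, above nearly all genes of similar span, while most genes lie near the median of 2.35%.

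Coverage was high over the coding sequence of all 8 genes and, in most of them, over the 5' part of the gene. Coding bases were not always most of the accessible bases. Nrn1 has 532 coding bp, whereas 4707 bases of its body were open in both libraries. Accessible bases mostly stopped inside the 3' untranslated region. Vgf and Rap2b were closed at the GENCODE 5' end. "Across the gene body" is thus not borne out for the whole span. Coding coverage was 100% in both libraries in Gpr85, Marcks, Rap2b and Fam84a, which 0.465% of all protein-coding genes reached. It was 100% and 92.0% in Slitrk1, 96.0% and 97.7% in Adcyap1, 86.4% and 92.8% in Vgf, and 86.7% and 90.4% in Nrn1. All 8 genes reached 85% in both libraries, against 0.875% of all genes and 0.695% of genes of like span, and the all-gene median was 0.998%. Coverage of 5' untranslated bases was 66.2% to 100%, but 40.2% of genes reach 65% there in both libraries, as all 8 did. Introns, present in 6 of the 8 models, were covered at 27.5% ± 0.745 in Vgf, 51.6% ± 7.60 in Nrn1, 71.7% ± 1.40 in Adcyap1, 76.2% ± 1.26 in Gpr85, 95.2% ± 6.86 in Fam84a and 100% in Marcks. All 6 reached 25% in both libraries, as did 1.7% of genes with introns.

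Within the gene, the 3' untranslated region was the least accessible part in 7 of the 8 genes. That order is not particular to them. The median over all protein-coding genes was also lowest there, at 0%. It was 0.998% for coding bases, 1.51% for introns and 49.8% for 5' untranslated bases. Among the 8, 3' untranslated coverage was 0% in both libraries in Adcyap1, 6.71% ± 0.285 in Marcks, 15.7% ± 4.67 in Gpr85 and 20.2% ± 0.301 in Rap2b. Slitrk1 had 23.3% ± 3.38, Fam84a 29.9% ± 0.657 and Nrn1 32.9% ± 5.58. Vgf stood apart with 75.1% ± 5.39, over a 3' untranslated region of 512 bp, the shortest of the 8. Even so, 6 of the 8 genes reached 10% in both libraries, against 5.46% of all genes with such a region. In the 10 kb downstream, 5 of 8 genes had no listed base in either library, as had 43.1% of all protein-coding genes, and Nrn1 had 16.9% and 15.7%. Upstream, Marcks (29.2% ± 4.03) and Nrn1 (15.5% ± 2.98) were open over long stretches, whereas the other 6 had between 2.02% and 7.66% of their 10 kb, where the all-gene median was 3.26%. The highest of these 6, Fam84a, was at the 79.2nd percentile of all genes.

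**Figure D2:**
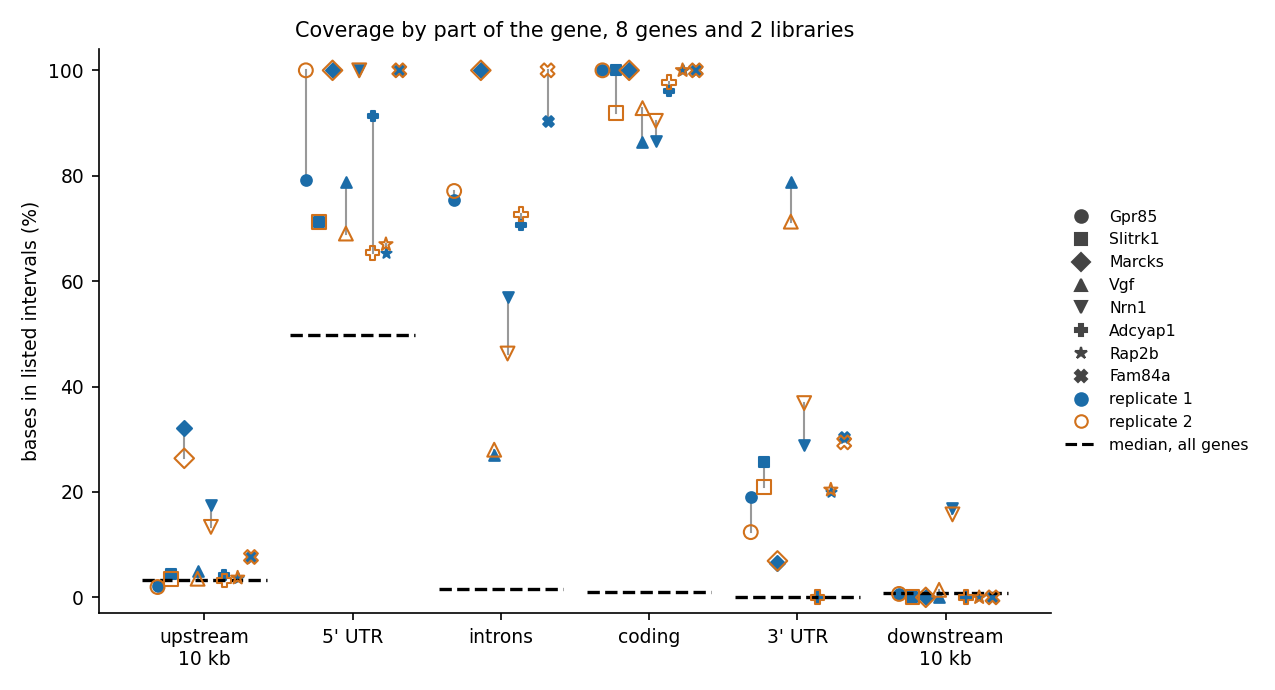
Percentage of bases in listed intervals, by part of the gene, for each of the 8 genes (marker shape) in replicate 1 (filled) and replicate 2 (open); grey lines join the libraries and dashed lines give the median over all protein-coding genes. Coding coverage lies at 86.4% or higher for every gene in both libraries, while 3' untranslated coverage ranges from 0% in Adcyap1 to 78.9% in Vgf.

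The stop codon lay in an accessible run of both libraries in 7 of the 8 genes. The same was not measured for other genes. That run ended 151 and 147 bp past the stop codon in Nrn1 in replicates 1 and 2. It ended 178 and 189 bp past it in Marcks, and 253 and 156 bp past it in Gpr85. In Slitrk1 the distance was 373 and 364 bp. In Vgf it was 404 and 365 bp, where the gene itself ends 512 bp past the stop codon. In Rap2b it was 182 and 489 bp, and in Fam84a 796 and 887 bp. The edges of the 2 libraries differed by 4 bp in Nrn1, 9 bp in Slitrk1, 11 bp in Marcks and 39 bp in Vgf, and by 91, 97 and 307 bp in Fam84a, Gpr85 and Rap2b. In Adcyap1 the stop codon lay in no listed run in either library. Averaged over the 8 genes, the 20 equal bins of the body were covered at 61.0% to 88.8% in the 12 bins nearest the 5' end. The last bin was covered at 12.3%. All genes averaged 28.1% in the bin at the 5' end and 2.46% in the last. Vgf and Rap2b had no listed base in the bin at the 5' end, which the average of the 8 does not show.

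**Figure D3:**
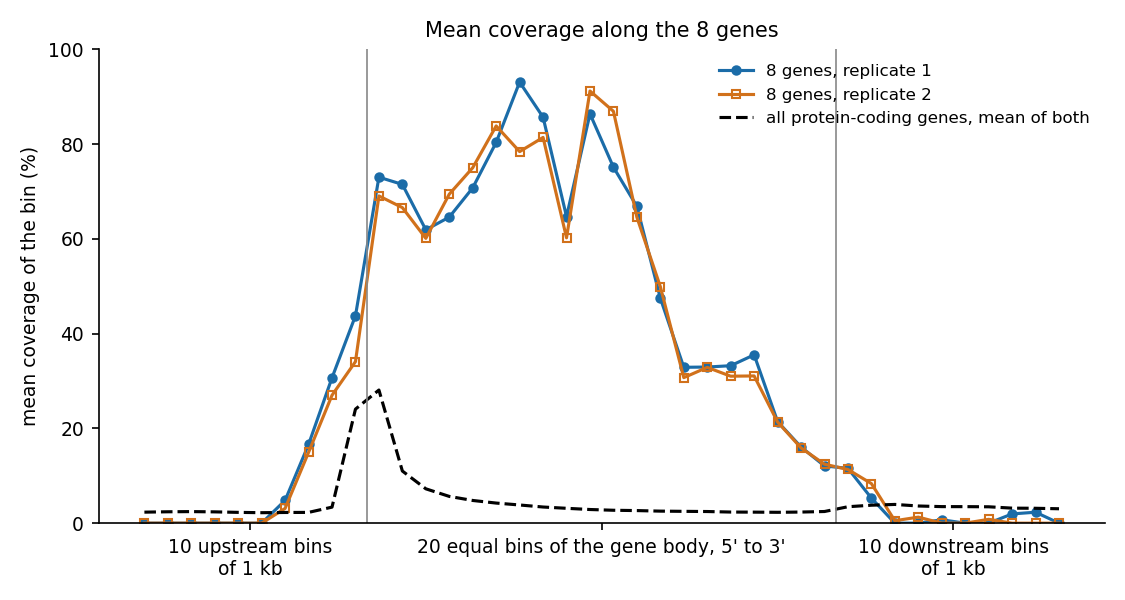
Mean coverage of the 8 genes in 10 upstream bins of 1 kb, 20 equal bins of the body and 10 downstream bins of 1 kb, in replicate 1 (filled circles) and replicate 2 (open squares), with the mean of all protein-coding genes (dashed). Mean coverage of the 8 genes stays above 60% over the 12 bins nearest the 5' end and falls to 12.3% in the last body bin. The all-gene mean peaks at 28.1% in the bin at the 5' end.

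Much of this accessibility came as long unbroken runs. The longest run reaching each gene was 5698 and 3537 bp in Marcks in replicates 1 and 2, 2957 and 3331 bp in Rap2b and 1878 and 3862 bp in Fam84a. It was 2220 and 2218 bp in Gpr85, 2588 and 1129 bp in Slitrk1, 1788 and 1563 bp in Nrn1, 1349 and 1371 bp in Vgf and 681 and 723 bp in Adcyap1. Over the genome the median run was 47 and 105 bp and the 99th percentile 1309 and 1202 bp. That percentile is over single runs, whereas the values above are the longest run of each gene. The genes were also chosen for body coverage, and the share of all genes with such a run was not measured. Only Adcyap1 had no run beyond that percentile in either library. Its coverage was pieced together from 26 and 19 runs, against 1 and 1 in Marcks. In Slitrk1 the longest run of replicate 1 took in the whole coding sequence, whereas that of replicate 2 held 36.6% of it.

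**Figure D4:**
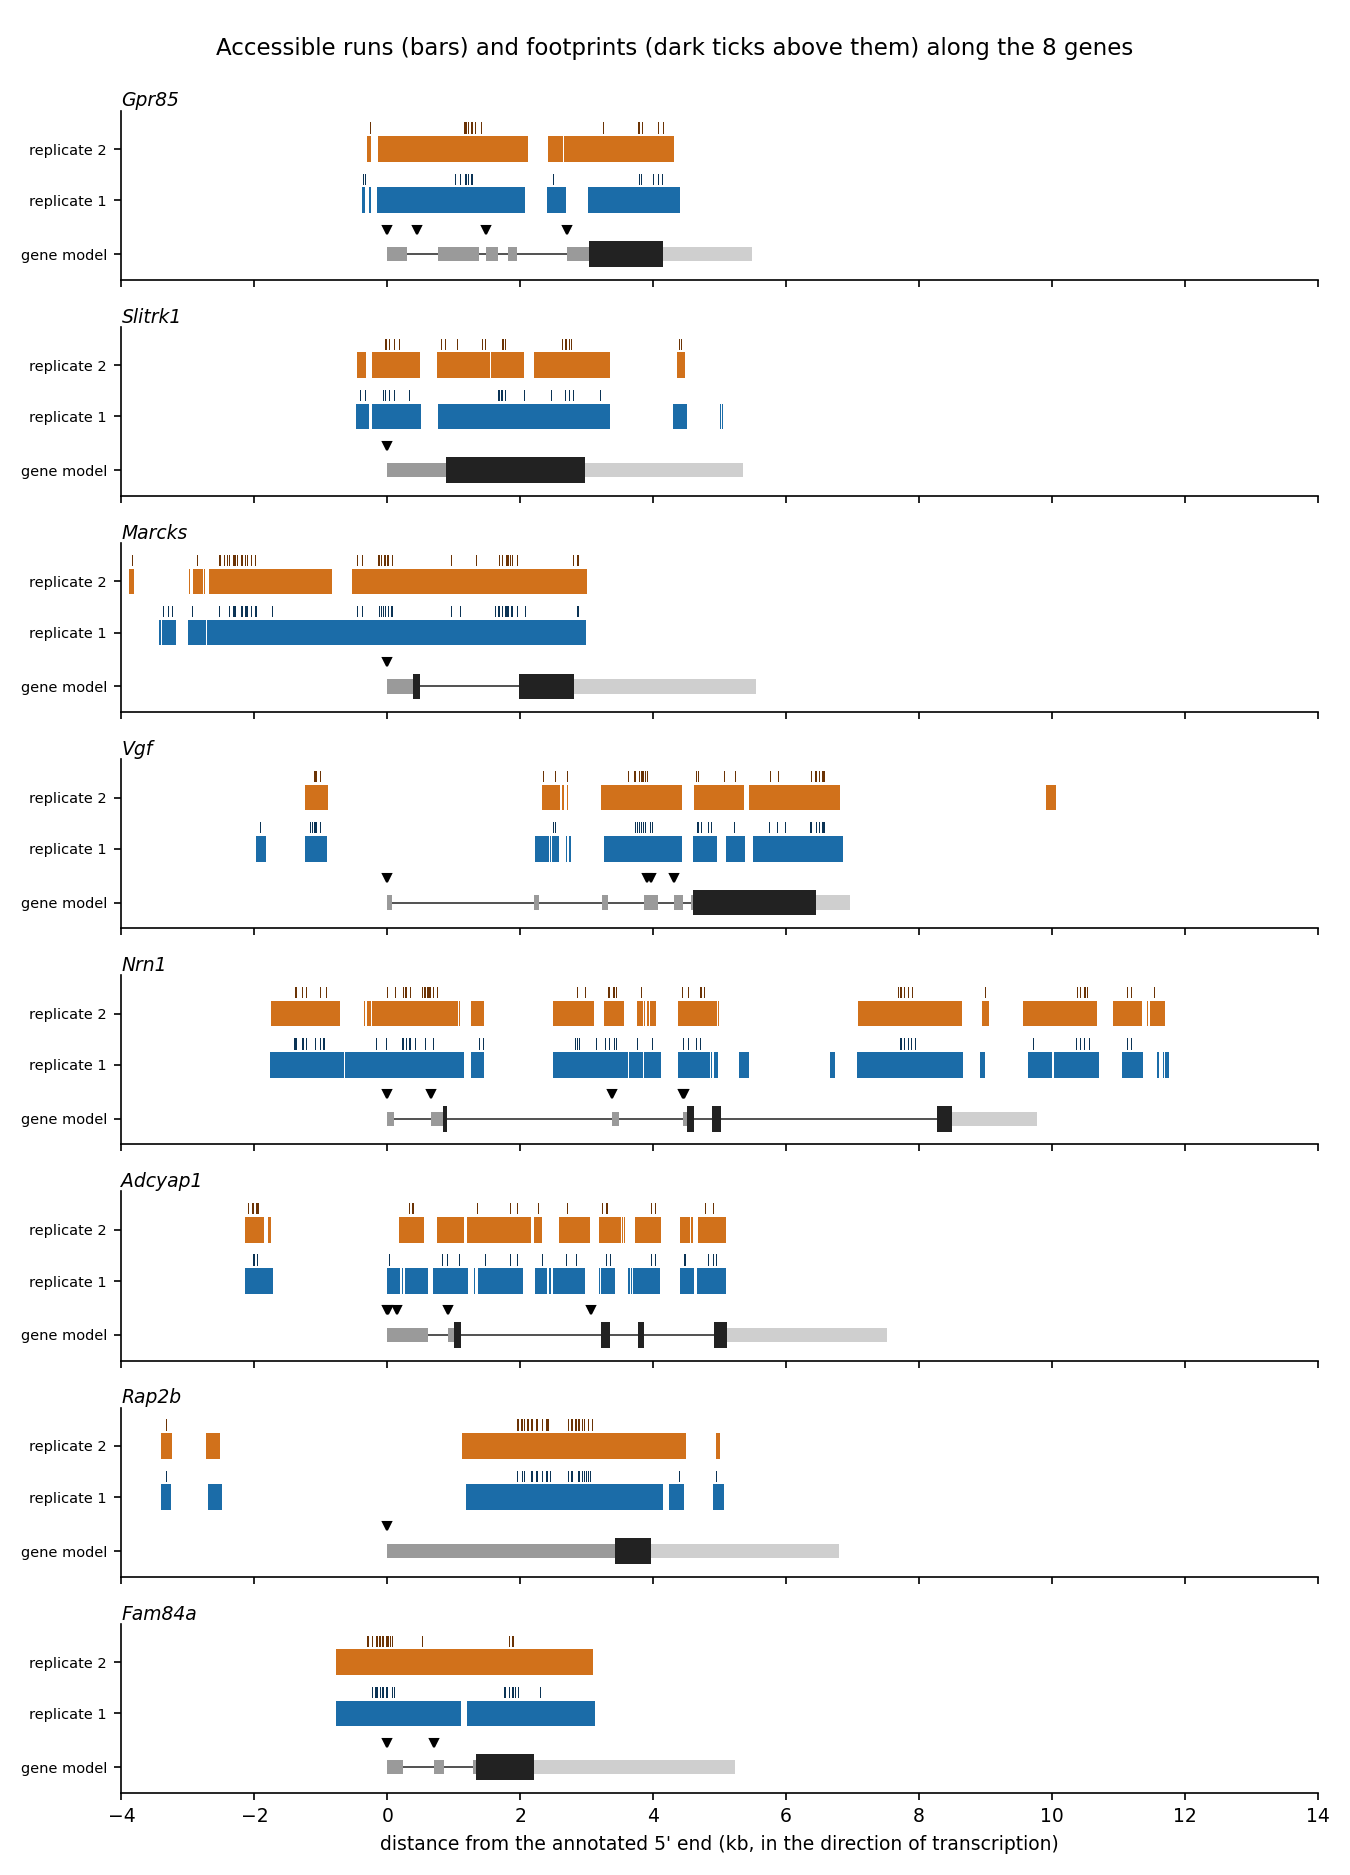
Accessible runs (bars) in replicate 1 (blue) and replicate 2 (orange), and footprints (dark ticks above them), against distance from the annotated 5' end in kb, for the 8 genes; in the models black is coding, dark grey 5' untranslated, light grey 3' untranslated, thin lines introns and triangles annotated starts. The runs take in most coding bases and end inside the 3' untranslated region in most genes. Rap2b is closed for more than 1 kb after its annotated start.

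Stricter limits separated genes of firm coverage from genes of marginal coverage. At a false discovery rate of 0.001 or less, Marcks kept 53.2% and 51.9% of its body and 100% of its coding bases in both libraries. Fam84a kept 43.2% and 46.4% of its body and Gpr85 53.4% and 49.6%. Adcyap1 kept 32.2% and 31.4% of its body at a limit of 0.01, and 10.2% and 17.3% at 0.001. Its coding coverage was 77.1% and 69.9% at 0.01, and 17.2% and 39.6% at 0.001. Slitrk1 kept 43.8% in replicate 1 but 24.9% in replicate 2, and its coding coverage was 77.8% and 42.2%. Nrn1 coding coverage was 72.7% and 29.7%. The all-gene median at that limit was 1.31% for the body and 0% for coding bases.

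Among the secreted and surface-tethered signals, Vgf (chr5:137026392-137033351, plus strand) codes for a granin-like neuropeptide precursor induced by neurotrophins. Its strongest peak, with signals of 6.48 and 7.19 in replicates 1 and 2, lay 3809 bp inside the model and 94 bp from an internal annotated start. No peak was listed at the outermost GENCODE start. A peak 1081 bp upstream of it (2.78 and 2.06) lay near the RefSeq 5' end, which is 1091 bp upstream of the GENCODE 5' end. The coding sequence, in 1 exon, held 4 peaks in each library, and the strongest, at the 3' end shown above, had 3.41 and 3.19. When the body was divided into 20 equal bins, the 6 nearest the 5' end had no listed base in either library.

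Known regulatory letters lay near the internal Vgf starts. A cAMP response element (TGACGTCA, the letters bound by CREB) lay at chr5:137030205-137030212, accessible in both libraries, with footprints of both overlapping 2 of its 8 bases. Those letters occur in 1.79% of RefSeq promoters. A word close to the RE1 element, the letters bound by the repressor REST, lay at chr5:137030278-137030294 in 5' untranslated sequence and reads CTGTCCAGCGTGCTGAA. It was matched to the RE1 consensus on either strand with up to 3 mismatches, a match found in 1.17% of promoters and at 11 places in the windows of the 8 genes. Footprints of both libraries overlapped 5 of its bases. On either side of the cAMP response element, GC boxes at chr5:137030179-137030184 and chr5:137030216-137030221 lay wholly within footprints of both libraries.

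Adcyap1 (chr17:93199017-93206537, plus strand) codes for PACAP, a neuropeptide that raises cyclic AMP in its target cells. It was the weakest of the 8 by peak signal. The strongest of its peaks, 1996 bp upstream, had 0.99 and 0.891, and the medians were 0.358 and 0.473. It had 11 and 10 peaks in the body, most of them in introns. Nrn1 (chr13:36725361-36735131, minus strand) codes for neuritin, a lipid-anchored surface protein that promotes neurite growth. It had the most peaks, 25 and 20 within the body and 10 kb on each side. The strongest, at 1.53 and 2.46, lay in an intron 7830 bp from the 5' end and 43 bp from the start of Gm30177, an antisense gene that overlaps Nrn1 by 2002 bp. Fars2, on the opposite strand, overlaps the 3' end of Nrn1 by 920 bp. DNase-seq has no strand, so accessible bases shared with these neighbours cannot be assigned to either gene.

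Of the cell-surface proteins, Slitrk1 (chr14:108908800-108914158, minus strand) is a leucine-rich-repeat protein of synapses and growing neurites, encoded in 1 exon. Its promoter peak, 23 bp upstream, had signals of 1.67 and 2.89. The coding peak over the transmembrane segment was about as strong, at 1.37 and 2.71, and a second coding peak 1727 bp inside had 1.37 and 1.72. Each of these was higher in replicate 2, the library with less Slitrk1 coverage. Gpr85 (chr6:13834458-13839942, minus strand) is an orphan receptor of the G protein-coupled class that is highly conserved and expressed in brain. Its strongest peak (2.56 and 2.68) lay 1251 bp inside, in 5' untranslated sequence 237 bp from an internal annotated start. The peak over the outermost start had only 0.587 and 0.676. Gpr85 thus had the highest body coverage of the 8 with no strong peak at its outermost start.

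Of the proteins acting inside the cell, Marcks (chr10:37133375-37138920, minus strand) is a substrate of protein kinase C that links membranes to actin. The run that held its coding sequence and its only intron began at position -2707 bp from the 5' end in replicate 1 and at -535 bp in replicate 2. Its strongest peak in replicate 1 was in the intron, 1789 bp inside, with 5.40 against 3.76 in replicate 2. The promoter peak, 51 bp upstream, had 4.59 and 4.91. A further strong peak 2241 bp upstream (2.94 and 4.17) lay 72 bp from a start of 5930403N24Rik, a noncoding gene on the opposite strand whose nearest start is 482 bp upstream of Marcks. Accessible bases between those starts cannot be assigned to either gene.

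Rap2b (chr3:61361638-61368430, plus strand) codes for a small GTPase of the Ras family. Its GENCODE model begins with 3419 bp of 5' untranslated sequence, and no peak lay within 1000 bp of that start in either library. Each of the other 7 had at least 1 annotated start with a peak that near in both libraries, as did 66.7% of protein-coding genes. Its strongest peaks lay 2893 bp (6.36 and 7.26) and 2213 bp (5.17 and 7.61) inside. The former sits at the RefSeq start, 2869 bp inside the GENCODE model, and the latter is only 60 bp wide in both libraries. On the opposite strand, the protein-coding gene B430305J03Rik overlaps Rap2b by 3702 bp, and its start lies 4313 bp inside. A 3' untranslated peak 4343 bp inside lay 30 bp from that start, and a coding peak lay 370 bp from it. The antisense gene Gm37696 overlaps Rap2b by 260 bp. Accessible bases shared with these neighbours cannot be assigned to either gene. A 30-base stretch at chr3:61364417-61364446 holds the densest GC boxes of Rap2b, in capitals.
Rap2b: agattcgcgCCGCCCCGCCCtgccCCGCCC
Fam84a (chr12:14146830-14152054, minus strand) codes for a protein of the LRAT-domain family. Its promoter peak, 117 bp upstream, was the strongest of all 98 peak sites, at 6.70 and 8.24. The coding peak shown above, 1883 bp inside, had 2.34 and 2.56.

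In that Fam84a coding peak, a word with at most 1 mismatch to the fixed letters of the CTCF consensus, searched on either strand, lay at chr12:14150160-14150173 and reads CCGCCCGCTGGTGG. All 14 of its bases were inside footprints of both libraries. Its 6 bases CCGCCC are also a GC box. Such words occur in 4.83% of RefSeq promoters, and there were 21 such words in the windows of the 8 genes, of which this was the only one touching a footprint in both libraries. Of 95 GC boxes in the 8 windows, 73 (76.8%) were accessible in both libraries, and 19, in 7 genes, lay wholly within footprints of both. Slitrk1 was the gene with none. Of 63 AP-1 words (TGANTCA) 3 were accessible in both libraries and 0 touched a footprint in both. AP-1 words occurred within 5 bp of only 0.668% and 0.717% of all shared footprints of replicates 1 and 2. The count of 0 thus carries no weight of its own. Of 294 TATA boxes (TATAAA) 12 were accessible in both libraries, and of 393 CCAAT boxes 49 were. The share of each word accessible over the whole genome was not measured. Among footprints found in both libraries and widened by 5 bp on each side, GC boxes were present in 25 of 154 (16.2%) of replicate 1 and 25 of 147 (17.0%) of replicate 2 in the windows of the 8 genes, and in 8.67% and 8.71% of all such footprints. The accessible bases of these genes are rich in G and C, as given next, and the part of base composition in that difference was not tested.

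Peaks and footprints were more numerous than in most genes, and most peak sites were found in both libraries. Within the bodies and 10 kb on each side there were 98 peak sites, of which 76 (77.6%) were listed in both libraries, against 63.0% of the 184851 sites of all chromosomes. The genes were chosen for accessibility in these same libraries, and the sites of all chromosomes were not matched for signal. The higher share thus carries no weight of its own. The 22 sites of 1 library were weak, with a median signal of 0.36 and a maximum of 0.983. Signals of shared sites were higher in replicate 2 at 54 of 76, by a median of 0.21 on the log2 scale (SD 0.34 over sites). At least 9 peaks were listed in both libraries at 7 of the 8 genes, and at 17.8% of all protein-coding genes. Fam84a was the exception, with 7 and 6. Shared sites numbered 15 in coding sequence, 10 in 5' untranslated sequence, 22 in introns, 7 in 3' untranslated sequence, 18 upstream and 4 downstream.

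**Figure D5:**
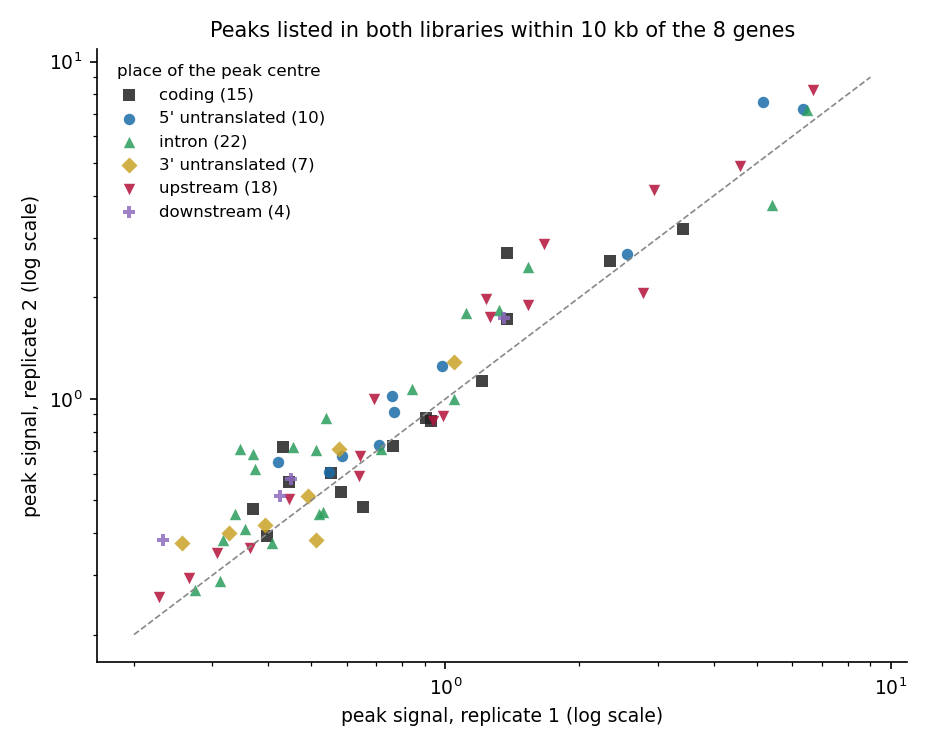
Signal of the 76 peak sites listed in both libraries, replicate 1 against replicate 2 on log axes, marked by where the peak centre lies; the dashed line is equality. Sites scatter about a line slightly above equality, and the coding peaks (black squares) span the range up to 3.41 and 3.19, below the strongest promoter, 5' untranslated and intron peaks.

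Footprints were numerous in the 8 bodies but not dense within their accessible bases. The 8 bodies held 200 footprints in replicate 1 and 182 in replicate 2, from 10 and 9 in Fam84a to 41 and 41 in Nrn1. All 8 had at least 9 in both libraries, as did 29.3% of genes. Per kb of accessible body the median was 6.86 and 6.31, below the 8.82 and 8.84 of all accessible DNA. Of the body footprints, 53% and 56.0% overlapped one of the other library, near the 55.0% of all footprints in each. Coding sequence held 44 and 47 of them, of which Slitrk1 had 13 and 16 and Vgf 15 and 13, Gpr85 6 and 9, and Fam84a 5 and 4. Adcyap1 had 3 and 3, in a coding sequence of only 528 bp. The coding sequences of Nrn1 (532 bp) and Marcks (930 bp), each with 1 and 1, and Rap2b (552 bp), with none, were open but held few footprints. Coding length reached 2091 bp in Slitrk1, and these counts were not scaled to it.

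Sequence features that were not used to choose the genes were also compared. The comparison is with protein-coding genes of all spans, whereas the 8 genes are short, and genes of like span were not compared for these features. The coding sequence lay in 1 exon in 5 of the 8 genes (Gpr85, Slitrk1, Vgf, Rap2b and Fam84a), as in 16.2% of all protein-coding genes. The median CpG density of their coding bases was 76.8 per kb, against 26.7 per kb for all genes. Marcks was the extreme, with coding bases 75.4% G and C and 145 CpG per kb. Gpr85 went the other way, with 18.9 CpG per kb of coding sequence, at the 29.8th percentile, although it had the highest body coverage. Within the bodies, bases open in both libraries were 57.0% G and C by median against 39.6% for bases open in neither, and had 44.5 against 8.55 CpG per kb. Open bases were richer in G and C in each of the 8 genes, for example at 60.9% against 34.0% in Marcks and 59.3% against 39.7% in Rap2b. The part of base composition in the coverage was not tested. Repeated sequence was scarce: 31-base words with more than 1 copy in the genome made up at most 2.14% of any body (Vgf), and 0% of coding words in 6 of 8 genes, with 0.0548% in Vgf and 2.49% in Rap2b.

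Relatives of the 8 genes had lower mean body coverage than the 8, although their median was above that of all genes. Among 27 paralogs and family members chosen by name, median body coverage was 7.18%, against 2.35% for all protein-coding genes. In both libraries 0 reached 45%, but only 1.02% of all genes did, so that count carries no weight of its own. Of the 27, 5 were in the top 5% of genes, where all 8 lay (5% of genes by definition). The nearest was Slitrk5, at 52.1% and 37.2%, followed by Gpr27 at 47.7% and 17.3%, Marcksl1 at a mean of 25.2% and Slitrk3 at 30.1% and 15.9%. Slitrk2 had 26.5% and 14.9%, and Slitrk4 16.4% and 19.4%. Coding coverage of the relatives varied widely. Slitrk3 and Slitrk4, also encoded in 1 exon, had 0.136% and 0% of coding bases open on average, against 96.0% in Slitrk1, although Slitrk3 had promoter signals equal to or near those of Slitrk1 (1.67 and 2.59). Fam84b was the only relative with coding coverage of 85% or more in both libraries, at 100% and 100%, over a gene of 34785 bp whose body coverage was 10.2%. Coding coverage was 98.8% and 36.1% in Gpr27, 56.9% in both libraries in Rap2a, 40.4% and 20.8% in Slitrk5 and 35.3% and 16.1% in Rap2c, and in each of these 4 genes but Slitrk5 its mean was above that of the body. Rap2a had the strongest promoter peak of the relatives (10.9 and 12.6) with a body coverage of 4.38%. The granins Chga, Chgb, Scg2, Scg3 and Scg5 had between 1.99% and 9.78%, Pcsk1n had 7.18% and Nrn1l 9.54%. The PACAP-related genes and receptors ranged from 0% in Gcg, through Vip (0.494%), Vipr2 (0.784%), Adcyap1r1 (4.76%), Ghrh (8.21%) and Sct (8.52%), to Vipr1 at 9.90%. Of the remaining relatives, Slitrk6 had 1.08%, Gpr173 2.23%, Rap2c 2.78%, Rap1b 3.47% and Rap1a 0.475%.

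The profile along the body was also compared with that of other genes. By the mean absolute difference over the 40 bins from the mean profile of the 8, the nearest other genes were Llgl1 (8.37 percentage points), Il3ra (10.3), Mycn (12.9), Frat1 (13.1) and Pim3 (13.2). The 8 genes themselves differed from their own mean by 12.7 in Adcyap1 to 28.4 percentage points in Vgf, so the mean profile described none of them closely, and Mycn, Frat1 and Pim3 lay farther from it than Adcyap1 did. Body coverage of Llgl1 was 47.5% and 50.4%, close in both libraries, and that of Pim3 60.8% and 58.7%. Il3ra (82.3% and 54.7%), Mycn (80.8% and 37.2%) and Frat1 (73.9% and 46.2%) were each much higher in replicate 1, a gap between libraries larger than in any of the 8.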

How the data were processed

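DNase-seq of 2 libraries of 1 group was used. The authors deposited, per library, intervals with a false discovery rate (a q-value) for the local cleavage rate, listed up to 0.05, 2 peak lists with a signal per peak, and footprints whose deposited score was constant, so that only their positions were used. Coordinates are mm10, per the labels. No aligner, peak caller or footprint caller is stated; these were not given in the sources used here. The files hold no read counts, so the depth is unknown and no counting interval is given. The smallest step of the peak signal was 0.00474 in replicate 1 and 0.00614 in replicate 2, so signals were scaled per library by the authors.

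Touching intervals were joined into runs. Coverage was taken over GENCODE M21 gene models (all transcripts of a gene) in Python 3.11.15 with NumPy 2.4.6 and pandas 2.3.3. Peaks (larger list) and footprints were placed by their centre, in the body plus 10 kb on each side where stated, and were shared if they overlapped by 1 bp. Interval and motif code was tested on simulated data. Sequences came from RefSeq (GRCm38.p6). The genes and lists were chosen with earlier results of these data known. Named genes are the 8, their relatives, neighbours in their windows, and the 5 genes of nearest profile. Values are means with the SD of 2 libraries, which measures only the spread between these samples. No test was made.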

Additional observations from a re-analysis of the deposited data

How the results depend on the processing

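Of 27 alternatives to 5 summary values, 18 kept the value within the SD between libraries, or within 1.5 times for counts, and 9 moved it further. Median body coverage of the 8 genes was 53.7% as reported, 48.1% at a false discovery rate limit of 0.01 and 37.0% at 0.001. Beyond 1000 bp of the gene's own GENCODE starts it was 41.9%. Without 1 or the other library it was 53.1% to 55.5%. Median coding coverage was 98.4%, and it was 90.9% at 0.01, 71.0% at 0.001 and 100% beyond 1000 bp of those starts. It was 98.9% to 100% without 1 or the other library. The median number of peaks per window was 10.8 and became 7 in the authors' stricter list. Fewer listed intervals or peaks follow from a stricter limit by construction. The 8 genes stayed in the top 5% of protein-coding genes under each of the 6 alternatives to that count. With 2 libraries and no read counts, small differences between genes or libraries cannot be told from counting error. No paired analysis was possible because there is only 1 group.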

Other observations

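The peak 2213 bp inside Rap2b was 60 bp wide with the same boundaries in both libraries (5.17 and 7.61), where the neighbouring strong peak of that gene was 240 and 260 bp wide. The intron peak of Marcks was lower in replicate 2 by 0.52 on the log2 scale, whereas shared sites near the 8 genes were higher in replicate 2 by a median of 0.21. These sites were singled out after their values were seen.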
